A study of Mus musculus with 2 samples.

Results

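The 10 genes followed here belong to the circadian clock, the cell-autonomous transcriptional oscillator that sets daily rhythms: Dbp, Tef, Per1, Per2, Per3, Nr1d1, Nr1d2, Ciart, Arntl and Npas2. They are 10 of the 32285 genes measured in single cells of the mouse proximal small intestine, and all 10 are in the count tables of both libraries. They were listed because Dbp had already been seen far higher in the enterocytes of 1 of these libraries, so they were chosen by the ratio between the libraries, which is given below as a description, without a test. The question was whether the other clock genes go with Dbp, and whether they do so in every cell class.

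The series concerns mice with knockdown of muscarinic acetylcholine receptor subtypes, and its control mice supplied the cell suspensions. Both libraries are controls of genotype C57BL/6: control 1 carries the title M1 Control and control 2 the title M3 Control. Tissue was taken apart with cold EDTA and then TrypLE, villus-rich and crypt-rich fractions were pooled, and 10x Genomics Chromium 3' libraries were made, which count polyadenylated RNA by unique molecular identifiers (UMIs). The age of the mice, the number of mice behind each library and the hour of collection are not given in the sources used here. Animal, hour and preparation therefore cannot be told apart in any difference between the 2 libraries. With 1 library on each side there is no replicate check, and every interval on a library's level or on a ratio is a 95% interval that covers counting error only.

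In the mammalian clock, BMAL1 (the product of Arntl) pairs with CLOCK or its paralogue NPAS2 and activates genes through E-box sequences. Period (PER) and cryptochrome (CRY) proteins feed back on this pair as repressors, and REV-ERB nuclear receptors (Nr1d1 and Nr1d2), themselves E-box targets, repress Arntl and Npas2 through response elements in those genes. DBP and TEF are proline- and acidic-rich bZIP activators that act at D-boxes, where NFIL3 represses. In many rhythmic tissues, the intestine among them, Dbp and Nr1d1 transcripts peak in the opposite part of the day to Arntl and Npas2.

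These element names refer to short sequences, shown here in the starts of the genes on which the results turn. RefSeq promoter windows (GRCm38.p6, 250 bases before to 50 after the annotated start) were at hand for 9 of the 10 genes in 12 windows, Per2 being the one without. Each stretch below runs 5′ to 3′ on the gene's strand and holds bases before the annotated start that lie in no annotated exon, except that of Arntl, which is a 30-base site after the start. Capitals mark the E-box CACGTG (Tef, Per1, Ciart), its variant CACGTT read on the other strand (Nr1d1), the D-boxes TTATGTAA (Per3) and TTATGCAA (Per1), and the core TAGGTCA of a REV-ERB response element (Arntl). Dbp is shown as the gene with the largest ratio and holds none of them, and the stretches of Tef and Per1 lie before an annotated start inside the gene.
Dbp, chr7:45704997-45705087, plus strand: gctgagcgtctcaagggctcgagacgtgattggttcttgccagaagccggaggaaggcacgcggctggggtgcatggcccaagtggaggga
Nr1d1, chr11:98775378-98775627, minus strand: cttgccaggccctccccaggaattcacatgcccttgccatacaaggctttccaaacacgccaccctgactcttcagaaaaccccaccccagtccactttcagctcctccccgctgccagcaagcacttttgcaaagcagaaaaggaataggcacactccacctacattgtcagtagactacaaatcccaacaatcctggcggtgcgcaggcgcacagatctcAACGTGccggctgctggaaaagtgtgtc
Tef, chr15:81811164-81811413, plus strand: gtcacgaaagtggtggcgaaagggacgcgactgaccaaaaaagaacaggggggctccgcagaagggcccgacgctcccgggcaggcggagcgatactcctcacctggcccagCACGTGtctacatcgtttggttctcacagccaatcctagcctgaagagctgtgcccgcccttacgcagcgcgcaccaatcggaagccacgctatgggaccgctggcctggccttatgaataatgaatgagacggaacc
Per1, chr11:69098699-69098947, plus strand: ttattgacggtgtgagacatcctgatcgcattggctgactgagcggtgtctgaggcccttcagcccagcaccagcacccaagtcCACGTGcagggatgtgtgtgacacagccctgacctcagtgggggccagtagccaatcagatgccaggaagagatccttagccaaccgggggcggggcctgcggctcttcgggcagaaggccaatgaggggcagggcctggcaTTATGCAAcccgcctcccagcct
Per3, chr4:151044666-151044915, minus strand: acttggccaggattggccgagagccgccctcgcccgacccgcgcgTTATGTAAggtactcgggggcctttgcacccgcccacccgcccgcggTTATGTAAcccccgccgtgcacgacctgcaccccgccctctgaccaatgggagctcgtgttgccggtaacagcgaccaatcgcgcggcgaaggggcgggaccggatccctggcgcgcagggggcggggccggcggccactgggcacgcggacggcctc
Ciart, chr3:95882252-95882478, minus strand: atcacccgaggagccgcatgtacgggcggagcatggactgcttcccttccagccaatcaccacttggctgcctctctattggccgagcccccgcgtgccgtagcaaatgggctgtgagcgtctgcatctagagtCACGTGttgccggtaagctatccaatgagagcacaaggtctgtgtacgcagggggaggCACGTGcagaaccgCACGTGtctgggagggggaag
Arntl, chr7:113207530-113207559, plus strand: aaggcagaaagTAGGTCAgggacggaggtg
Searched on both strands of all 32851 windows of the same length, the E-box was in 7.15% of windows and in those of 3 of the 9 genes, with 3 copies in Ciart. The variant CACGTT was in 4.68% of windows and in 1 of the 9 genes. The D-box, as TTATGTAA or TTATGCAA, was in 1.66% of windows and in 2 of the 9 genes, and the response element core, as TAGGTCA or TGGGTCA, was in 6.45% of windows and in 1 of the 9 genes. None of these letters was found in the windows of Dbp, Nr1d2 and Npas2, which says only that they are not in these windows. A match describes the sequence and is not shown here to be a site.

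Control 1 held 9342 barcodes and 54451793 UMIs, and control 2 held 7109 barcodes and 36139325 UMIs. After barcodes with under 500 genes or 25% or more mitochondrial UMIs and called doublets were left out, 7061 cells of control 1 and 4711 cells of control 2 remained. The tables share 17 barcode sequences, 7 of them among kept cells. Cells were clustered jointly without the clock genes and named by markers, and each name is written as "-like". Enterocyte-like cells numbered 3391 in control 1 and 2278 in control 2, and T/NK-like cells (T lymphocytes and natural killer cells of the epithelium) 2447 and 1583. Progenitor-like cells (dividing crypt cells) numbered 255 in control 1 and 123 in control 2, and goblet-like cells (mucus-secreting) 114 and 250. The 12 enterocyte markers summed to 84905 CPM in control 1 and 76145 CPM in control 2 in enterocyte-like cells, where CPM is a gene's UMIs per 1000000 UMIs of that library and class.

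In enterocyte-like cells the clock genes lay on both sides. The REV-ERB genes, Dbp, Tef and Per3 were at least 2-fold higher in control 1, the activators Arntl and Npas2 were at least 2-fold lower in control 1, and Per1 and Per2 lay within 2-fold. Of the 9 genes with at least 20 UMIs over both libraries, 5 were thus higher and 2 lower, where 4.19% and 7.21% of the 12087 genes past the same minimum were; since this contrast chose the genes, nothing is read from that comparison. The median log2 ratio of those 12087 genes was −0.08.

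**Figure D1:**
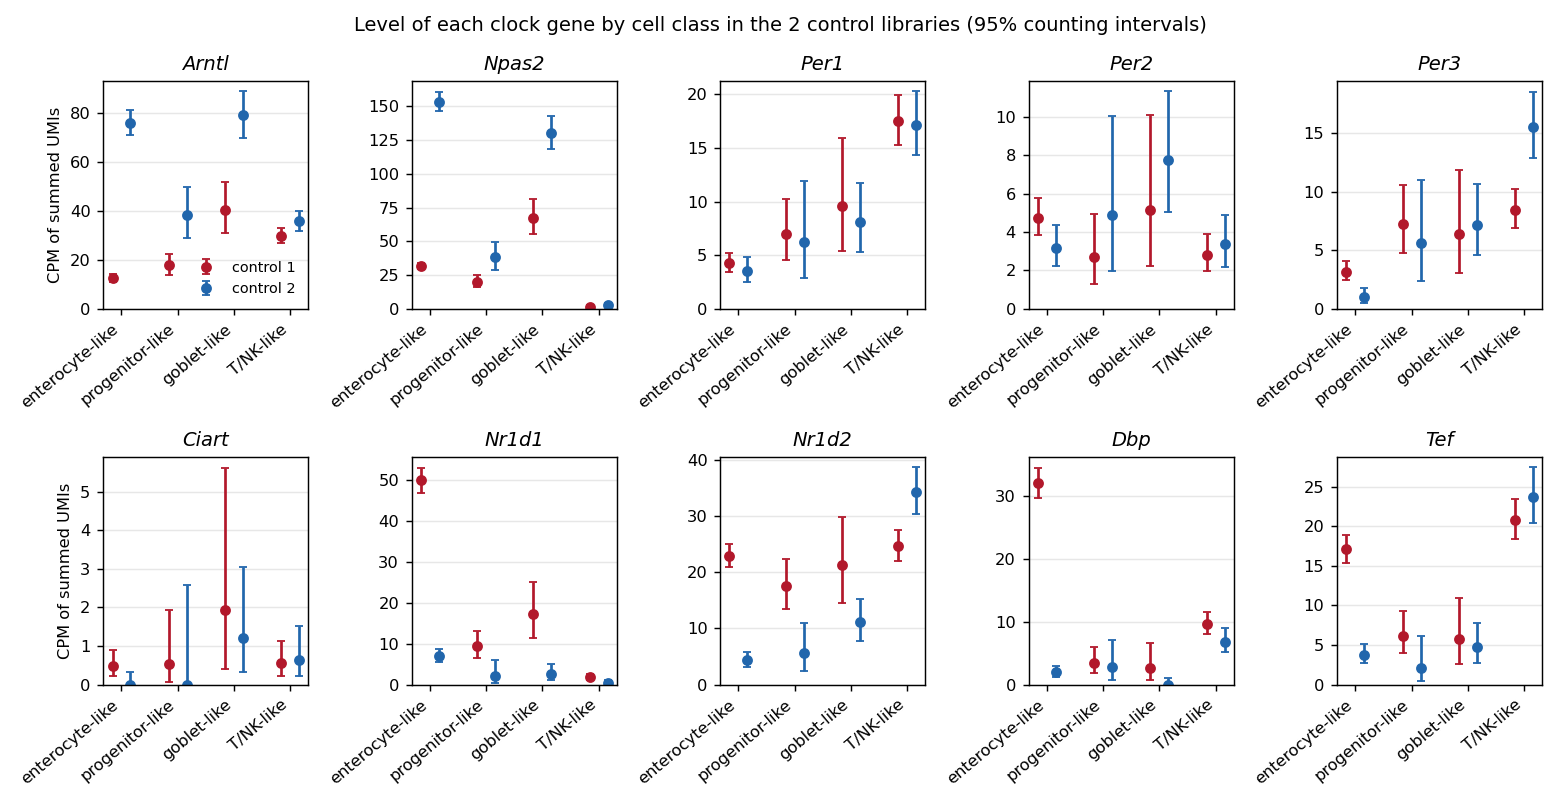
Level of each clock gene in 4 cell classes, in CPM of summed UMIs with 95% exact Poisson intervals (counting error only), control 1 in red and control 2 in blue; each panel has its own axis from 0. In enterocyte-like cells Dbp stands at 32.0 CPM in control 1 and 1.94 CPM in control 2, and Arntl at 12.5 CPM in control 1 and 76.0 CPM in control 2, while in T/NK-like cells both pairs lie closer together.

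Arntl, whose product BMAL1 is the obligate partner of the activator pair, had 260 UMIs (12.5 CPM) in control 1 enterocyte-like cells and 863 UMIs (76.0 CPM) in those of control 2. It was 6.08-fold lower in control 1, with an interval of 5.28 to 7.01. Npas2, the paralogue of Clock, had 658 UMIs (31.7 CPM) in control 1 and 1741 UMIs (153 CPM) in control 2, 4.84-fold lower in control 1 (4.43 to 5.31). Both activators were therefore on the same side. Arntl spans chr7:113207465-113314126 on the plus strand and Npas2 chr1:39193731-39363236 on the plus strand (GRCm38). Clock itself, the other partner of BMAL1, had 51.2 CPM in control 1 and 69.6 CPM in control 2, 1.36-fold lower in control 1 (1.24 to 1.49), which is within 2-fold.

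The REV-ERB pair, Nr1d1 (chr11:98767932-98775333, minus strand) and Nr1d2 (chr14:18204054-18239127, minus strand), stood the other way round. Nr1d1 had 1039 UMIs (49.99 CPM) in control 1 and 79 UMIs (6.96 CPM) in control 2, a ratio of 7.18 (5.71 to 9.15). Nr1d2, its paralogue, had 475 UMIs (22.9 CPM) in control 1 and 49 UMIs (4.32 CPM) in control 2, a ratio of 5.29 (3.94 to 7.26). The 2 counting intervals overlap, so the paralogues are not told apart by the size of their ratio at this depth. Nr1d1 shares exonic bases with Thra, a thyroid hormone receptor gene on the opposite strand, and use of strand in counting is not given in the sources used here. Thra itself stood at 105 CPM in control 1 and 106 CPM in control 2, a ratio of 0.988.

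Dbp (chr7:45705088-45710203, plus strand) had the largest ratio of the 9 genes assessed in this class. It had 666 UMIs (32.0 CPM, 29.7 to 34.6) in control 1 and 22 UMIs (1.94 CPM, 1.21 to 2.93) in control 2, a ratio of 16.5 (10.8 to 26.6). Tef (chr15:81802421-81826863, plus strand), the other bZIP activator among the 10, had 355 UMIs (17.1 CPM) in control 1 and 43 UMIs (3.79 CPM) in control 2, a ratio of 4.51 (3.28 to 6.34). The interval of Dbp lies above those of Tef and both REV-ERB genes, but its ratio is the one that led to the list. The rank of Dbp is therefore not read as a result. Dbp shares exonic bases with Sphk2, a sphingosine kinase gene on the opposite strand, which stood at 57.6 CPM in control 1 and 42.2 CPM in control 2, a ratio of 1.37.

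The Period genes Per1 (chr11:69095217-69109960, plus strand), Per2 (chr1:91415982-91459324, minus strand) and Per3 (chr4:151003652-151044665, minus strand) had few UMIs in enterocyte-like cells. So had Ciart (chr3:95878503-95882251, minus strand), whose product CHRONO also represses the activator pair. Per1 had 88 UMIs (4.23 CPM) in control 1 and 40 UMIs (3.52 CPM) in control 2, a ratio of 1.202 whose interval of 0.818 to 1.79 holds 1. Per2 had 99 UMIs (4.76 CPM) in control 1 and 36 UMIs (3.17 CPM) in control 2, a ratio of 1.502 (1.02 to 2.27). Per3 had 66 UMIs (3.18 CPM) in control 1 and 11 UMIs (0.969 CPM) in control 2, a ratio of 3.28 (1.72 to 6.88). Only Per3 of the Period genes passed 2-fold, and in the mean over cells of each cell's CPM its log2 ratio turned to −0.36. Ciart had 10 UMIs in control 1 and 0 in control 2, under the minimum of 20, and against the floor of 3 UMIs over the class it was at least 1.82-fold higher in control 1.

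**Figure D2:**
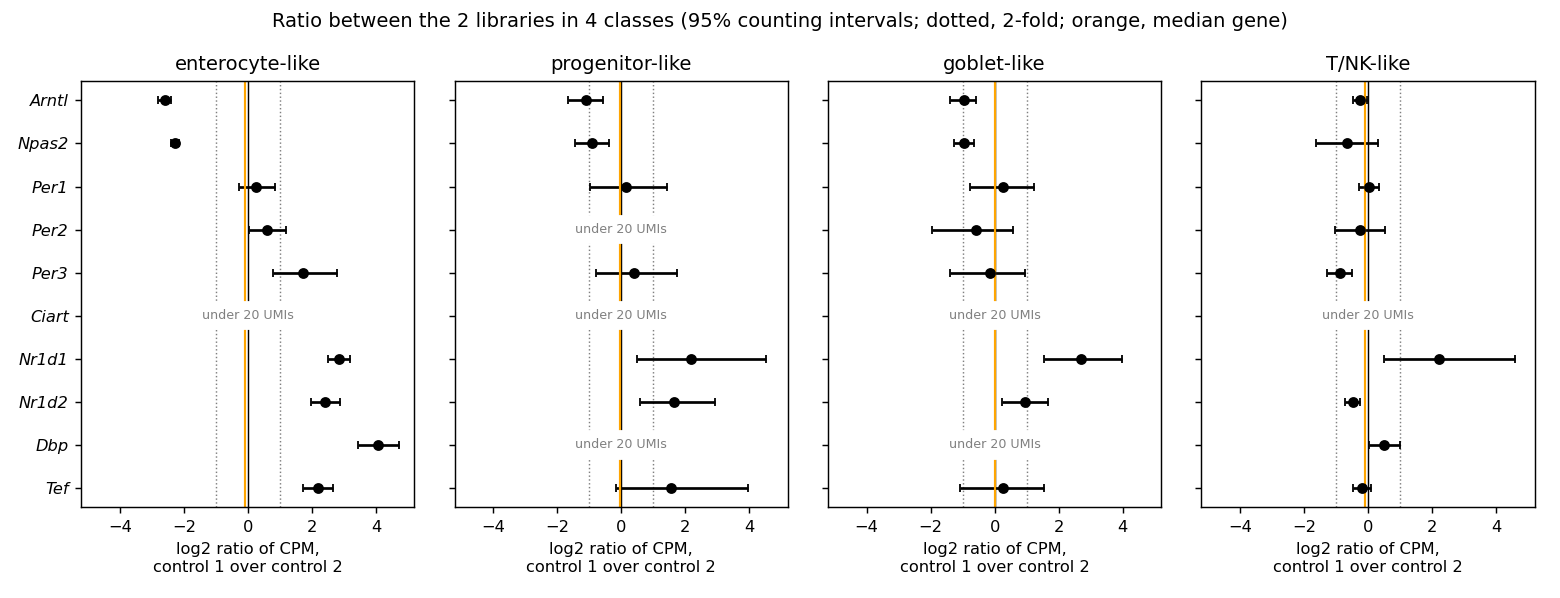
Log2 ratio of CPM, control 1 over control 2, for each clock gene in 4 cell classes, with 95% exact conditional binomial intervals (counting error only); dotted lines mark 2-fold and the orange line the median of all genes assessed in the class. In enterocyte-like cells Arntl and Npas2 lie left of the 2-fold line and Per3, Nr1d1, Nr1d2, Dbp and Tef right of it, whereas in T/NK-like cells Nr1d1 is the only gene past it.

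The direction of the split was the same in each cluster, in part on few UMIs. Enterocyte-like cells formed 8 clusters, and in all 8 the CPM of Dbp, Tef, Nr1d1 and Nr1d2 was higher in control 1 and that of Arntl and Npas2 lower in control 1. In cluster 16, Dbp had 1 UMI and Nr1d2 3 UMIs in each library, and in cluster 20 Tef had 1 UMI in control 1 and 0 in control 2. At least 20 UMIs were reached in 5 clusters for Dbp and Tef, 6 for Nr1d2 and 7 for Nr1d1, Arntl and Npas2. Of these, Tef in cluster 2 (a ratio of 1.65) and Npas2 in cluster 16 (1.75-fold lower in control 1) were within 2-fold. Among clusters with at least 20 UMIs, the ratio of Dbp ran from 5.69 to 38.3 over 4 clusters, and was at least 18.1 against the floor of 3 UMIs in cluster 3, where control 2 had 0 UMIs. The ratio of Nr1d1 ran from 5.78 to 30.8 over 7 clusters, and Arntl was 2.84-fold to 8.11-fold lower in control 1 over 6 clusters. In cluster 12 Arntl had 0 UMIs in control 1 and 36 UMIs in control 2, at least 2.72-fold lower in control 1 against the same floor. Per1, Per2 and Per3 were higher in control 1 in 5, 5 and 3 of the 8 clusters. The clusters come from the same 2 suspensions and are not replicates of the difference.

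**Figure D3:**
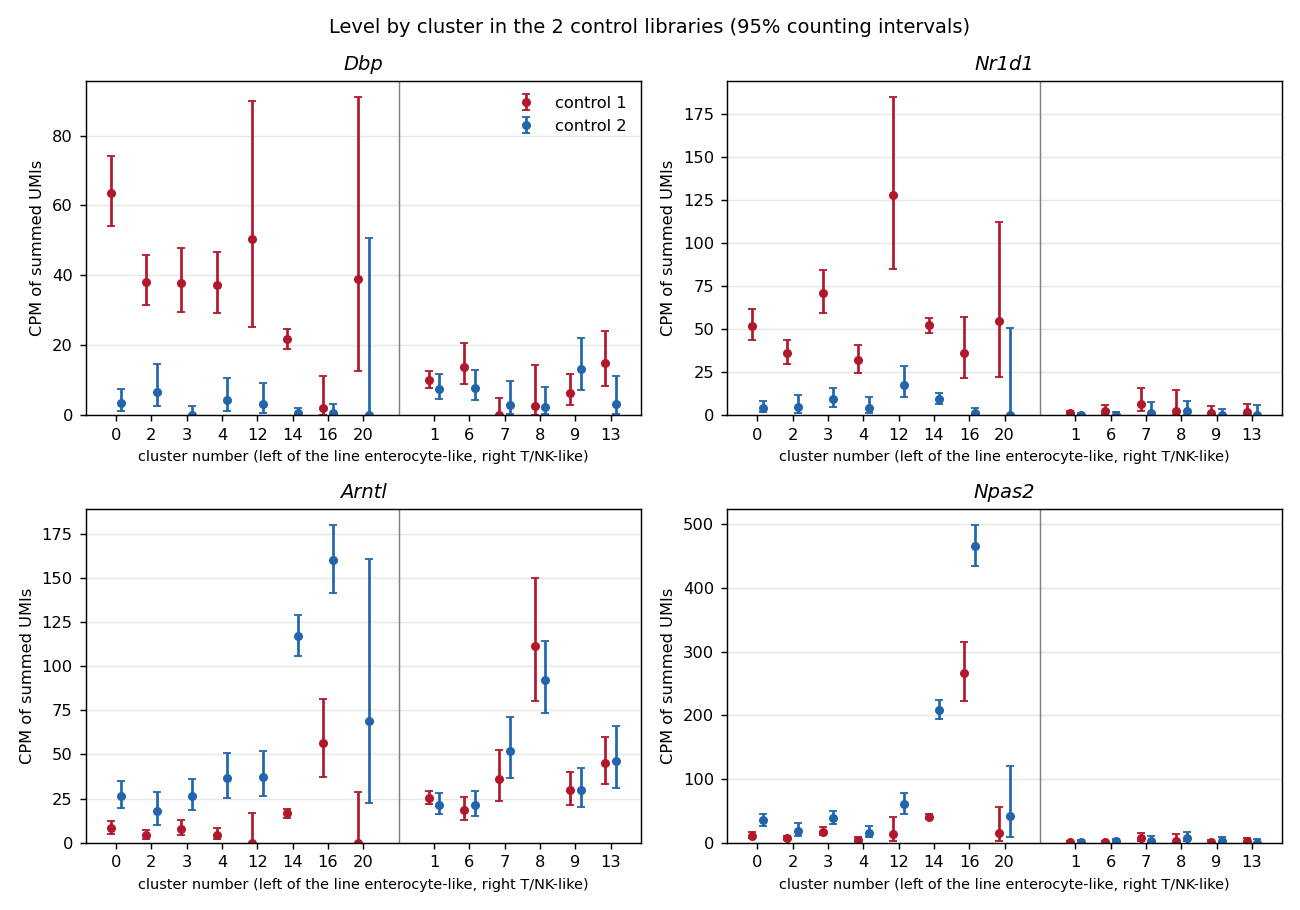
Level of Dbp, Nr1d1, Arntl and Npas2 by cluster, in CPM of summed UMIs with 95% exact Poisson intervals, control 1 in red and control 2 in blue; enterocyte-like clusters are left of the grey line and T/NK-like clusters right of it. Every enterocyte-like cluster has the red point above the blue one for Dbp and Nr1d1 and below it for Arntl and Npas2, and the T/NK-like clusters show no such order for Dbp and Arntl.

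Clusters 14 and 16 stood apart from the other 6 enterocyte-like clusters in depth and mitochondrial content. They held 245 cells of control 1 with a median of 35595 UMIs and 9.93% mitochondrial UMIs, and 197 cells of control 2 with a median of 22097 UMIs and 15.1% mitochondrial UMIs. The other 6 clusters had medians of 2294 UMIs in control 1 and 2191 UMIs in control 2, with 0.160% mitochondrial UMIs in control 1 and 0.167% in control 2. Of the 863 Arntl UMIs of control 2, 686 came from these 197 deep cells, so each ratio is given in both groups of clusters. The part of depth and mitochondrial content in the results was not tested beyond this split.

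Both groups of clusters carried the same split of genes. For Dbp, the deep clusters had 229 UMIs (20.7 CPM) in control 1 and 3 UMIs (0.572 CPM) in control 2, a ratio of 36.3 (12.3 to 177), and the other clusters had 437 UMIs (44.8 CPM) and 19 UMIs (3.11 CPM), a ratio of 14.4 (9.12 to 24.2). For Nr1d1 the ratio was 7.94 (5.61 to 11.6) in the deep clusters and 6.56 (4.82 to 9.11) in the others. For Nr1d2 the ratio was 6.77 in the deep clusters and 4.11 in the others, and for Tef 6.96 and 3.24. Arntl was 7.11-fold lower in control 1 in the deep clusters (18.4 CPM in control 1, 131 CPM in control 2) and 4.96-fold lower in the others (5.85 CPM in control 1, 29.0 CPM in control 2). Npas2 was 5.73-fold lower in control 1 in the deep clusters and 3.49-fold lower in the others. The deep clusters were mixed unevenly: cluster 14 held 198 cells of control 1 and 101 of control 2, and cluster 16 held 47 and 96. Arntl was 7.04-fold lower in control 1 in cluster 14 and 2.84-fold lower in cluster 16. Npas2 was 5.11-fold lower in cluster 14 and 1.75-fold lower, within 2-fold, in cluster 16. For both genes the pooled value is thus larger than that of either cluster.

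The Period genes differed between the 2 groups of clusters. For Per3, the deep clusters had 53 UMIs in control 1 and 3 UMIs in control 2, a ratio of 8.39 (2.72 to 42.0), and in the others 13 UMIs and 8 UMIs, a ratio of 1.02 (0.391 to 2.83). Per2 was at 1.25 (0.802 to 1.98) in the deep clusters and 2.06 (0.855 to 5.68) in the others, past 2-fold there, and both intervals hold 1. The pooled value of the deep clusters hides opposite sides. In cluster 14, Per2 had 74 UMIs in control 1 and 12 UMIs in control 2, a ratio of 2.07 (1.12 to 4.19). In cluster 16, it had 2 UMIs and 17 UMIs, under the minimum of 20, a ratio of 0.403 (0.0452 to 1.70). Per1 turned direction: it had 62 UMIs in control 1 and 20 UMIs in control 2 in the deep clusters, a ratio of 1.47 (0.878 to 2.57), and 26 UMIs and 20 UMIs in the others, a ratio of 0.815 (0.437 to 1.54), and both of its intervals hold 1.

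The difference was also visible as the share of cells with at least 1 UMI. In the deep clusters, 35.1% of cells had a Dbp UMI in control 1 (29.1% to 41.4%) and 1.52% in control 2 (0.315% to 4.39%). There Nr1d1 was found in 61.2% of cells in control 1 and 10.2% in control 2, and Arntl in 40% of cells in control 1 and 82.2% in control 2. The Dbp UMIs of control 1 were spread over many cells, the richest of these deep cells holding 13 of 229. Over all enterocyte-like cells, 12.6% had a Dbp UMI in control 1 and 0.790% in control 2. After each cell was thinned to 2000 UMIs, which left out 1340 cells of control 1 and 935 cells of control 2, these shares were 7.70% in control 1 (6.59% to 8.94%) and 0.447% in control 2 (0.164% to 0.970%). Thinned in the same way, T/NK-like cells had a Dbp UMI in 1.72% of cells in control 1 (1.21% to 2.38%) and 1.38% in control 2 (0.807% to 2.20%). Unthinned, an Nr1d1 UMI was in 16.1% of enterocyte-like cells in control 1 and 2.63% in control 2, and in 0.817% and 0.190% of T/NK-like cells. Median depth was 2421 UMIs in control 1 and 2351 UMIs in control 2 in enterocyte-like cells, and 5109 UMIs and 4526 UMIs in T/NK-like cells, so the deeper class had the lower share of cells with Nr1d1.

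**Figure D4:**
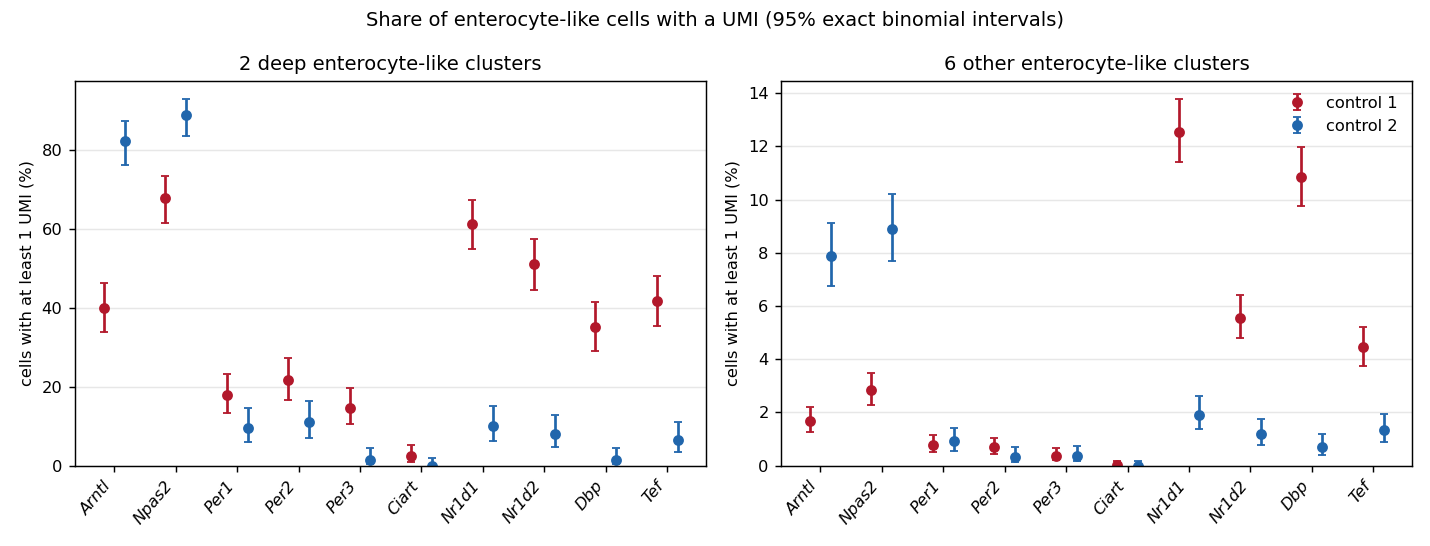
Percent of enterocyte-like cells with at least 1 UMI of each clock gene, with 95% exact binomial intervals, control 1 in red and control 2 in blue, in the 2 deep clusters (left) and the 6 other clusters (right; the axes differ). In the deep clusters Arntl was found in 40% of control 1 cells and 82.2% of control 2 cells, and Dbp in 35.1% of control 1 cells and 1.52% of control 2 cells; Per1 and Per3 in the other clusters lie together.

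In T/NK-like cells, the second class by size, the clock genes did not show the split seen in enterocyte-like cells. Of 9 genes with at least 20 UMIs, 1 was at least 2-fold higher in control 1 and 0 were at least 2-fold lower, where 2.74% and 3.15% of the 12877 genes past the same minimum were. Dbp had 124 UMIs (9.70 CPM) in control 1 and 53 UMIs (6.84 CPM) in control 2, a ratio of 1.42 (1.02 to 1.99). Arntl had 383 UMIs (30.0 CPM) in control 1 and 277 UMIs (35.8 CPM) in control 2, a ratio of 0.838 (0.716 to 0.981). Both ratios are within 2-fold, and their counting intervals do not meet those of the same genes in enterocyte-like cells. The enterocyte-like ratio of Dbp led to the list, so this gap is a description.

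The remaining T/NK-like values were close together as well. Tef had 20.8 CPM in control 1 and 23.8 CPM in control 2, a ratio of 0.876 (0.723 to 1.06). Nr1d2 had 24.6 CPM in control 1 and 34.3 CPM in control 2, a ratio of 0.717 (0.607 to 0.848), on the other side of 1 from its ratio in enterocyte-like cells. Per1 had a ratio of 1.02 (0.820 to 1.27) and Per2 of 0.839 (0.493 to 1.45). Per3 had 108 UMIs (8.45 CPM) in control 1 and 120 UMIs (15.5 CPM) in control 2, a ratio of 0.545 (0.416 to 0.713), and its CPM was lower in control 1 in 6 of the 6 T/NK-like clusters. Dbp was higher in control 1 in 4 of these clusters and lower in 2. In cluster 9, it had 9 UMIs in control 1 and 14 UMIs in control 2, 2.10-fold lower in control 1 with an interval of 0.846 to 5.50 that holds 1.

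Nr1d1 and Npas2 were scarce in T/NK-like cells, at levels that set a limit to their ratios there. Nr1d1 had 23 UMIs (1.80 CPM) in control 1 and 3 UMIs (0.387 CPM) in control 2, a ratio of 4.64 (1.40 to 24.2), and it was the single gene past 2-fold. These levels are 3.60% and 5.56% of those in enterocyte-like cells, while the enterocyte markers themselves were at 2.79% and 2.52% in T/NK-like cells. Npas2 had 21 UMIs (1.64 CPM) in control 1 and 20 UMIs (2.58 CPM) in control 2, at 5.19% and 1.68% of the levels in enterocyte-like cells. The CPM of Nr1d1 was higher in control 1 in 6 of the 6 T/NK-like clusters, of which 0 reached 20 UMIs for it. That of Npas2 was higher in 2 and lower in 4. Values this near the level of markers that T/NK cells should lack may hold background, which was not tested, and no difference is drawn from them. Dbp, at 30.3% of the enterocyte-like level in control 1 and 353% of it in control 2, was above that level.

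Progenitor-like cells had part of the split. Of 7 genes assessed, 3 were at least 2-fold higher in control 1 and 1 was at least 2-fold lower, where 4.11% and 3.39% of 10889 genes were. Nr1d2 had 65 UMIs (17.5 CPM) in control 1 and 8 UMIs (5.57 CPM) in control 2, a ratio of 3.14 (1.502 to 7.57), and Arntl had 66 UMIs (17.8 CPM) and 55 UMIs (38.3 CPM), 2.16-fold lower in control 1 (1.48 to 3.13). Npas2 was 1.90-fold lower in control 1 (1.32 to 2.73). Nr1d1 had 35 UMIs in control 1 and 3 UMIs in control 2, a ratio of 4.51 (1.42 to 22.9), and Tef 23 UMIs and 3 UMIs, a ratio of 2.96 (0.895 to 15.4). The ratios of Nr1d1 and Tef did not keep their direction: in the mean over cells of each cell's CPM, their log2 ratios were −0.39 and −0.065. Dbp had 13 UMIs (3.50 CPM) in control 1 and 4 UMIs (2.79 CPM) in control 2, under the minimum, with an interval of the ratio from 0.388 to 5.28. Markers of other classes also differed between the libraries within progenitor-like cells. Enteroendocrine markers summed to 1426 CPM in control 1 (11 of 12 detected) and 53.6 CPM in control 2 (8 of 12), Paneth markers to 1429 CPM (10 of 10) and 429.9 CPM (9 of 10), and goblet markers to 2924 CPM and 7308 CPM (10 of 10 in each). Erythroid markers summed to 1746 CPM in control 1 (5 of 6) and 8126 CPM in control 2 (6 of 6). Nr1d2 stood at 42.2 CPM in enteroendocrine-like cells of control 1 and 10.5 CPM in those of control 2. The part of these other cell types in the progenitor-like ratios was not tested.

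In goblet-like cells 1 of 8 genes assessed was at least 2-fold higher in control 1 and 0 were at least 2-fold lower, where 5.37% and 3.31% of 8848 genes were. The gene was Nr1d1, with 27 UMIs (17.3 CPM) in control 1 and 9 UMIs (2.69 CPM) in control 2, a ratio of 6.45 (2.94 to 15.6). Arntl had 63 UMIs (40.5 CPM) in control 1 and 265 UMIs (79.2 CPM) in control 2, 1.96-fold lower in control 1 (1.48 to 2.62), and Npas2 was 1.93-fold lower (1.56 to 2.41). These 2 ratios sit just inside the 2-fold limit, on the side they have in enterocyte-like cells. Nr1d2 had a ratio of 1.92 (1.16 to 3.15), Tef of 1.21 (0.471 to 2.91), and Dbp had 4 UMIs in control 1 and 0 in control 2. The enterocyte markers stood at 8.79% of their enterocyte-like level in control 1 goblet-like cells and 3.37% in those of control 2, against 34.7% and 38.6% for Nr1d1, so their part in its ratio was not tested further. Goblet-like cells were 1.61% of kept cells in control 1 and 5.31% in control 2.

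In the myeloid-like and erythroid-like classes none of the 10 genes reached 20 UMIs over both libraries. In those classes 12.8% and 11.9% of the genes assessed were at least 2-fold higher in control 1, and 4.31% and 5.12% at least 2-fold lower. Dbp had 5 UMIs in control 1 and 4 UMIs in control 2 in myeloid-like cells, and 5 UMIs and 0 UMIs in erythroid-like cells. The interval of that second ratio starts at 1.19, and that of Npas2 in myeloid-like cells, with 1 UMI in control 1 and 5 UMIs in control 2, ends at 0.710. Every other interval in these classes holds 1, and ratios from so few UMIs are not read further.

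Dbp therefore ranked differently by class in the 2 libraries. In control 1 its level was 32.0 CPM in enterocyte-like, 9.70 CPM in T/NK-like, 3.50 CPM in progenitor-like and 2.57 CPM in goblet-like cells, and the intervals of the first and second do not meet each other or the rest, while those of progenitor-like (1.86 to 5.98) and goblet-like cells (0.700 to 6.58) overlap. In control 2 its level was 1.94 CPM in enterocyte-like, 6.84 CPM in T/NK-like, 2.79 CPM in progenitor-like and 0 CPM in goblet-like cells, and only the T/NK-like interval (5.12 to 8.95) lies above that of enterocyte-like cells.

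Classes were also compared with each other by a test: the sum of a class against the sum of all other named classes in the same library, with library as a block, by edgeR's quasi-likelihood test with Benjamini-Hochberg adjustment over all genes tested. The enterocyte-like sums, whose ratio chose the genes, enter each contrast, in the class or in the rest. TMM scaling (trimmed mean of M-values) moved all genes by 0.86 (log2) in the enterocyte-like contrast, by −0.68 in the T/NK-like, −0.04 in the progenitor-like, 0.75 in the goblet-like, 0.17 in the myeloid-like and 1.12 in the erythroid-like one, so fold changes are relative to that shift. In enterocyte-like cells, 2 of 10 genes were higher and 1 lower than elsewhere, where 33.7% and 37.8% of 13377 genes were, so the count of genes called is no result about the clock. Scaled to total UMIs alone, 2593 of the 13377 genes were higher and 7899 lower in enterocyte-like cells, against 4502 and 5056 with TMM.

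Nr1d1 and Npas2 were the genes called higher in that contrast. Nr1d1 stood at 49.99 CPM and 6.96 CPM in enterocyte-like cells of control 1 and control 2, against 5.75 CPM and 1.54 CPM elsewhere, a log2 fold change of 3.67 ± 0.30 (SE, 2 libraries; adjusted p = 0.000203 by edgeR). Npas2 was at 31.7 CPM and 153 CPM against 12.2 CPM and 37.5 CPM, a log2 fold change of 2.57 ± 0.19 (adjusted p = 0.000149 by edgeR). Both libraries therefore had both genes higher in enterocyte-like cells than in the sum of the other classes, although control 1 was above control 2 for Nr1d1 and below it for Npas2. This does not hold against each class. In control 1, Npas2 stood at 67.4 CPM in goblet-like and 97.3 CPM in enteroendocrine-like cells, above its enterocyte-like level. In control 2 it stood at 130 CPM and 80.3 CPM in these classes, below its enterocyte-like level. Per1 fell by 0.86 ± 0.22 on the log2 scale (adjusted p = 0.0153 by edgeR), and under a joint fit over the main classes its value turned to 0.82 and was not called. Dbp, at 32.0 CPM and 1.94 CPM against 7.59 CPM and 4.34 CPM, had a log2 fold change of 1.77 ± 0.76 and was not called (adjusted p = 0.0808 by edgeR): it was above the other classes in control 1 and below them in control 2.

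Of 9 genes tested in T/NK-like cells, 2 were higher and 3 lower than elsewhere, where 39.1% and 37.1% of 13360 genes were. Scaled to total UMIs alone, 7541 of those genes were higher and 3637 lower, against 5229 and 4959 with TMM. Per1 (log2 fold change 1.10 ± 0.21, adjusted p = 0.000633 by edgeR) and Per3 (1.07 ± 0.32, adjusted p = 0.00970 by edgeR) were higher in T/NK-like cells in both libraries. Nr1d1, Npas2 and Per2 were lower, at log2 fold changes of −4.97, −5.62 and −1.18. Nr1d1 was at 1.80 CPM and 0.387 CPM in control 1 and control 2 against 38.4 CPM and 5.33 CPM elsewhere. The values elsewhere include the enterocyte-like cells, whose ratio chose the genes, so the sizes of these changes are not read. Arntl and Tef were not called, at adjusted p = 0.152 and 0.0777 by edgeR. The T/NK-like Arntl level lay between 30.0 CPM and 35.8 CPM while that of all other classes was 14.1 CPM in control 1 and 66.1 CPM in control 2.

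In progenitor-like cells 0 of 9 genes were higher and 5 lower (Dbp, Tef, Nr1d1, Nr1d2 and Npas2), where 24.9% and 24.6% of 12833 genes were. There 0 were higher at an unadjusted p under 0.05 in edgeR, and DESeq2 called 0 higher and 1 lower. Dbp stood at 3.50 CPM and 2.79 CPM in progenitor-like cells of control 1 and control 2, against 21.1 CPM and 3.34 CPM elsewhere. The control 1 value elsewhere includes the enterocyte-like level that chose the gene, so the calls of Dbp in progenitor-like and goblet-like cells are not read as results. The other progenitor-like calls are set against the same enterocyte-like sums and are not read either. Nr1d1, for one, stood at 9.42 CPM and 2.09 CPM against 29.1 CPM and 3.98 CPM elsewhere. In goblet-like cells 5 of 10 genes were higher (Per2, Per3, Ciart, Arntl and Npas2) and 1 lower (Dbp), where 24.8% and 27.5% of 12573 genes were. Arntl stood at 40.5 CPM and 79.2 CPM in goblet-like cells of control 1 and control 2, against 18.0 CPM and 54.0 CPM elsewhere, a log2 fold change of 1.56 ± 0.18 relative to a TMM shift of 0.75 (adjusted p = 9.69e-06 by edgeR). Scaled to total UMIs alone, 1526 of the 12573 genes were higher and 6651 lower in goblet-like cells, against 3118 and 3459 with TMM. Myeloid-like cells had 0 genes higher and 2 lower of 9 (Arntl and Npas2), where 9.22% and 12% of 12612 genes were, and 0 higher at an unadjusted p under 0.05 or in DESeq2. Erythroid-like cells had 0 higher and 0 lower of 9, where 1.2% and 2.45% of 12297 genes were; at an unadjusted p under 0.05 edgeR had 0 higher and 2 lower, and DESeq2 called 0 in either direction. Among all genes in erythroid-like cells, 147 were higher and 301 lower with TMM, 34 and 3486 with total UMIs alone, and 200 and 182 with DESeq2 size factors in edgeR.

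The other genes of the loop were read from a list of 19, of which 16 reached the minimum in enterocyte-like cells. Of these, 0 were at least 2-fold higher in control 1 and 4 were at least 2-fold lower, with a median log2 ratio of −0.48 against −0.08 for all genes. Nfil3, the D-box repressor, had 120 UMIs (5.77 CPM) in control 1 and 281 UMIs (24.8 CPM) in control 2, 4.29-fold lower in control 1 (3.45 to 5.35). Cry1, a cryptochrome repressor, had 11.6 CPM in control 1 and 35.1 CPM in control 2, 3.01-fold lower in control 1 (2.56 to 3.55). Fbxl21, an F-box gene whose product acts on cryptochromes, was 2.69-fold lower (1.71 to 4.29). Within the D-box pair the repressor Nfil3 and the activators Dbp and Tef thus lay on opposite sides, and Nfil3 on the side of Arntl.

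Fbxl21, Hlf, Abcb1a and Noct lie outside the rule for named genes and were chosen after their values were seen. Other loop genes differed less. Cry2, the second cryptochrome, was 1.57-fold lower in control 1 (1.16 to 2.12), and Bhlhe40, which encodes the E-box repressor DEC1, 1.36-fold lower (1.19 to 1.55). Hlf, the third bZIP activator of the DBP family, had a ratio of 1.65 (1.14 to 2.45) and did not reach 2-fold. Of the 19 genes, 17 were assessed in T/NK-like cells, with 0 at least 2-fold higher in control 1 and 1 at least 2-fold lower, which was Hlf at 2.35-fold (1.47 to 3.79). There Cry1 had a ratio of 0.848 (0.625 to 1.16) and Nfil3 of 1.23 (0.974 to 1.57), so neither went past 2-fold.

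**Figure D5:**
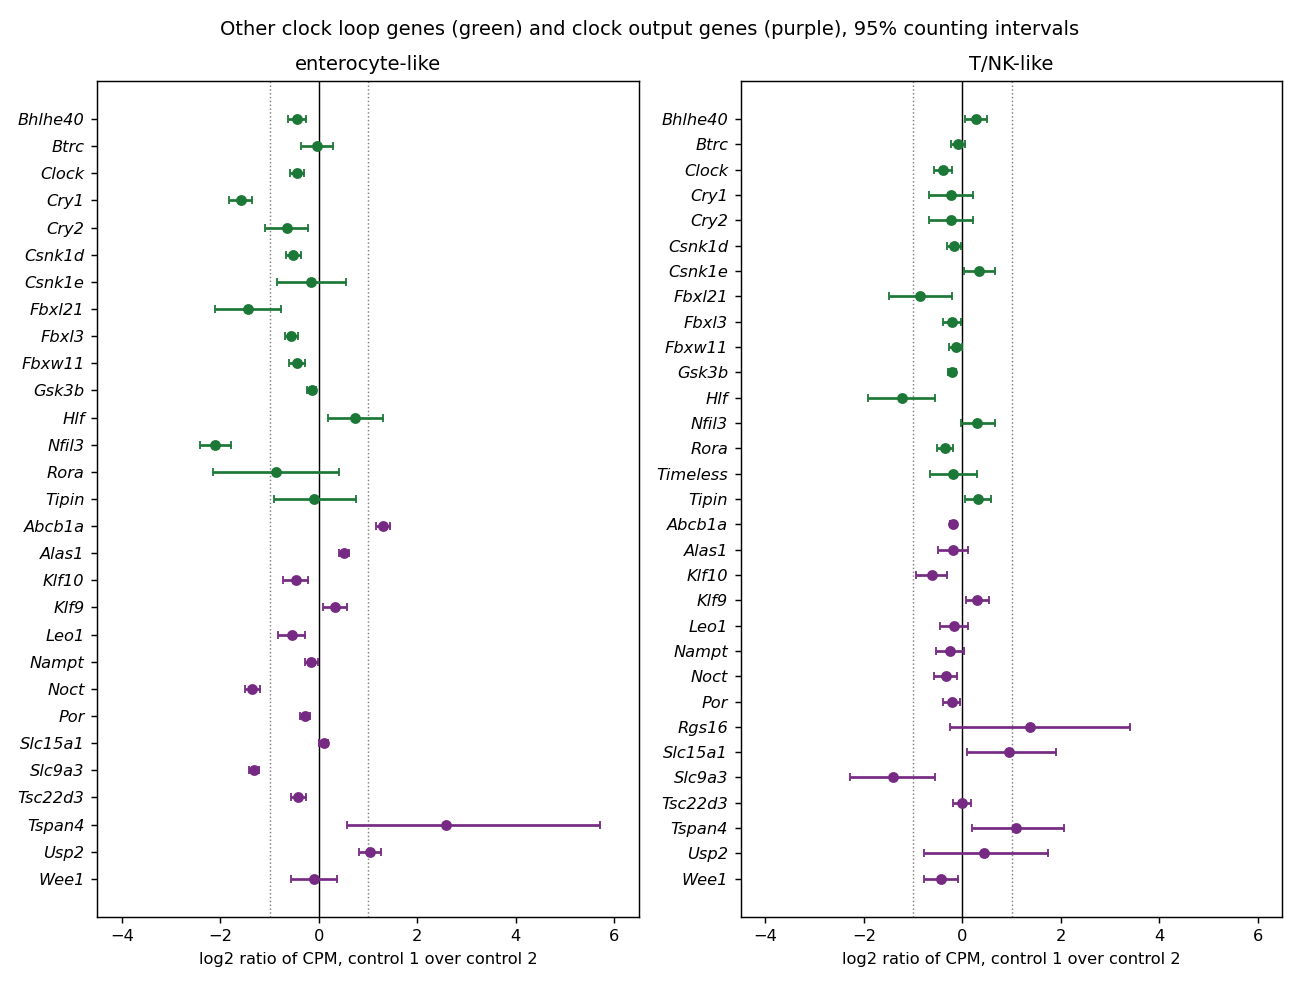
Log2 ratio of CPM, control 1 over control 2, for the other clock loop genes shown (green) and clock output genes (purple) with at least 20 UMIs and UMIs in both libraries, in enterocyte-like (left) and T/NK-like cells (right), with 95% counting intervals; dotted lines mark 2-fold. In enterocyte-like cells Cry1, Fbxl21, Nfil3, Noct and Slc9a3 lie left of the 2-fold line and Abcb1a, Tspan4 and Usp2 right of it.

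Clock output genes, whose transcripts follow the oscillator in many tissues, were read from a list of 15. Of 14 assessed in enterocyte-like cells, 3 were at least 2-fold higher in control 1 and 2 at least 2-fold lower, with a median log2 ratio of −0.12. Usp2, a rhythmic ubiquitin protease, had 37.7 CPM in control 1 and 18.4 CPM in control 2, a ratio of 2.05 (1.75 to 2.39), and Tspan4, a tetraspanin, had 22 UMIs and 2 UMIs, a ratio of 6.01 (1.48 to 52.7). Abcb1a, a drug efflux pump of the brush border, had 119 CPM in control 1 and 48.4 CPM in control 2, a ratio of 2.47 (2.25 to 2.71). Noct, the rhythmic gene of the nocturnin family, was 2.55-fold lower in control 1 (2.29 to 2.83). Slc9a3, the apical sodium-proton exchanger NHE3, was 2.49-fold lower (2.33 to 2.66) and was also lower in T/NK-like and progenitor-like cells, but higher in goblet-like cells at a ratio of 2.26. Tsc22d3, a glucocorticoid-induced gene also on this list, had a ratio of 0.749 (0.674 to 0.832) in enterocyte-like and 0.996 (0.875 to 1.13) in T/NK-like cells. Of 15 output genes assessed in T/NK-like cells, 2 were at least 2-fold higher in control 1, 1 of them Tspan4 at 2.12 (1.15 to 4.16), and 1 was lower.

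Genes that answer to hormones or to handling of the tissue were read beside the clock, since Per1 is itself known as a glucocorticoid-induced and immediate-early gene. Of 17 immediate-early and temperature genes assessed in enterocyte-like cells, 1 was at least 2-fold higher in control 1 (Egr1, an immediate-early factor, at 2.24) and 2 were lower, beside 4.19% and 7.21% of all genes. Of the lower ones Hspa1b, a heat shock gene, had 14 UMIs in control 1 and 26 UMIs in control 2, 3.40-fold lower in control 1 (1.71 to 7.05). In T/NK-like cells 5 of 15 were higher and 1 lower, beside 2.74% and 3.15% of all genes, in progenitor-like cells 6 of 18 and 1, beside 4.11% and 3.39%, and in goblet-like cells 5 of 15 and 0, beside 5.37% and 3.31%. Fos, an immediate-early transcription factor, had a ratio of 1.11 (1.04 to 1.19) in enterocyte-like and 2.68 (2.17 to 3.33) in T/NK-like cells. Dusp1, a phosphatase induced by stress and by glucocorticoids, had a ratio of 1.24 in enterocyte-like and 4.37 (3.16 to 6.19) in T/NK-like cells. The difference of these counts between classes was not tested, nor was the part of these genes in the clock results. Of 13 glucocorticoid-induced genes assessed in enterocyte-like cells, 3 were at least 2-fold higher in control 1 and 1 lower. The higher ones were Fkbp5 at 2.47 (1.89 to 3.26) and the metallothionein genes Mt1 at 2.22 (2.15 to 2.30) and Mt2 at 2.61 (2.29 to 2.97). In T/NK-like cells 2 of 13 were higher and 1 lower, in progenitor-like cells 3 of 12 and 0, and in goblet-like cells 3 of 11 and 0. The 4 hemoglobin genes, which mark RNA of red blood cells, were within 2-fold in enterocyte-like and T/NK-like cells, at least 2-fold lower in control 1 in progenitor-like cells and at least 2-fold higher in goblet-like cells, 4 of 4 in each.

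By the likeness of levels over the 12 sums of 2 libraries and 6 classes, among 1492 genes outside the lists with at least 20 UMIs in every class, Dbp was nearest to Maf1 (Pearson r = 0.855), Snf8 (0.842), Ufc1 (0.798), Bloc1s1 (0.775) and Slc25a11 (0.772). Arntl was nearest to Ywhaz (0.920), mt-Co1 (0.911), Dync1i2 (0.900), mt-Nd5 (0.895) and Ppp2ca (0.879). The sums share 2 libraries and their depth, so these are descriptions. mt-Co1 was at 5543 CPM in control 1 and 13869 CPM in control 2 in enterocyte-like cells, and at 2557 CPM and 6630 CPM in T/NK-like cells, where Arntl was at 30.0 CPM and 35.8 CPM.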

How the data were processed

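The authors deposited 2 tables of UMI counts, 1 per library, made by Cell Ranger 7.1.0 per the file headers; Cell Ranger 6.1 is also named by the submitters' processing notes, with GRCm38 and mm10 as builds. Use of introns or strand in counting is not given in the sources used here. A minimum of 500 genes removed 1719 barcodes from control 1 and 2094 from control 2, and a limit of 25% mitochondrial UMIs a further 503 and 273. Scrublet, at an expected rate of 0.06, removed 59 and 31 doublets. Both libraries were clustered together (scanpy 1.11.5 under Python 3.11.15; 2000 variable genes without the clock lists, 40 components, 15 neighbours, Leiden resolution 1.0) and 25 of 27 clusters were named from fixed marker lists by mean log expression, a scoring rule set after the data were seen. UMIs were summed per library and class, and classes of at least 50 cells in each library are main classes. Ratios were counted for genes with at least 20 UMIs over both libraries, with exact Poisson and conditional binomial intervals from scipy 1.17.1.

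Class contrasts used edgeR 4.0.16 in R 4.3.3 (TMM, filterByExpr, quasi-likelihood test, threshold 0.05, only over genes used neither to cluster nor to name), with library as a block because the sums of a library come from 1 suspension; DESeq2 1.42.0 was an alternative, and the method was tested on simulated data. The block takes out each library's own level. A p-value therefore weighs a class difference against how unevenly class differences appeared in these 2 libraries. That spread is estimated with information shared over all genes, not from the gene alone. Separate animals behind the libraries are not stated in the labels, so p-values do not cover the spread between mice. Gene positions are those of GENCODE vM21 on GRCm38. Other scalings, filters, clusterings and cell weights were tried as alternatives.

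The clock genes and all lists were chosen with earlier results of these data known. The genes named are the 10 clock genes in every main class; Clock, Cry1, Cry2, Nfil3, Bhlhe40, Usp2, Tspan4 and Tsc22d3; any listed gene at least 2-fold apart in the same direction in 3 or more main classes; up to 4 genes of the other lists with the largest enterocyte-like ratio; and the 5 genes most like Dbp and Arntl in log2(CPM + 1). A gene counted in the list of other loop genes is not reported here.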

Additional observations from a re-analysis of the deposited data

Results flagged for a closer look

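The clock genes were also counted in the barcodes left out for 25% or more mitochondrial UMIs, 503 in control 1 with 4882068 UMIs and 273 in control 2 with 2983059 UMIs, which enter no comparison of the report. A level is given where its count passed the 3 UMIs that a count of 0 allows, and no cause was tested. In these barcodes Dbp stood at 7.78 CPM in control 1, from 38 UMIs, and had 1 UMI in control 2. Nr1d1 stood at 32.6 CPM in control 1 and 2.35 CPM in control 2, and Nr1d2 at 25.4 CPM in control 1 and 4.36 CPM in control 2. Tef stood at 21.7 CPM in control 1 and 4.02 CPM in control 2. These genes were higher in control 1, the side they have in kept enterocyte-like cells, though these barcodes were given no cell class.

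Among the Period genes in the same barcodes, Per1 stood at 6.96 CPM in control 1 and 5.70 CPM in control 2, and Per2 at 11.9 CPM in control 1 and 5.36 CPM in control 2. Per3 stood at 4.51 CPM in control 1, from 22 UMIs, and had 2 UMIs in control 2. The activators were lower in control 1. Arntl stood at 30.5 CPM in control 1 and 135 CPM in control 2. Npas2 stood at 166 CPM in control 1 and 306 CPM in control 2. The barcodes left out for under 500 genes, 1719 in control 1 and 2094 in control 2, showed only part of this. Dbp had 16 UMIs in control 1 and 2 in control 2, Nr1d1 22 and 2, and Arntl 12 and 35. Tef went the other way, with 6 UMIs and 14 UMIs, a ratio of 0.540 whose interval holds 1. Per1 had 0 UMIs in control 1 and 10 in control 2. Nr1d2, at a ratio of 1.55, and Npas2, at 0.840, lay within 2-fold.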

How the results depend on the processing

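Between the libraries, the enterocyte-like counts (5 higher, 2 lower) stayed within 1.5 times under every alternative run, among them 3 other scalings, thinning, both cluster groups and separate clustering. The genes behind a count were not always the same. Without the deep clusters, Per3 fell to a ratio of 1.02 and Per2 passed 2-fold at 2.06. A ratio cannot be formed without either library. In T/NK-like cells thinning to 2000 UMIs gave 0 higher and 1 lower, and the mean over cells gave 1 lower. In progenitor-like cells thinning left 0 genes assessed, hence 0 higher and 0 lower. Lower counts there were 0 with cells under 10% mitochondrial UMIs, 0 without the top 6% of doublet scores and 2 at Leiden resolution 0.5. In goblet-like cells the mean over cells gave 2 higher and 1 lower, as did leaving out the top doublet scores (2 and 1), while Leiden resolution 0.5 gave 1 lower and no UMI minimum gave 2 higher. With no UMI minimum, myeloid-like cells had 2 higher and 4 lower, and erythroid-like cells 4 and 4, on at most 16 UMIs a gene. In the mean over cells the log2 ratio turned to −0.36 for Per3 in enterocyte-like cells, and to −0.065 for Tef and −0.39 for Nr1d1 in progenitor-like cells. The cause was not tested.

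In the class contrasts, DESeq2 called 4 higher and 0 lower in enterocyte-like, 1 higher in T/NK-like, 1 lower in progenitor-like, 2 higher in goblet-like and 1 lower in myeloid-like cells. Of all 13377 genes in enterocyte-like cells, DESeq2 called 4159 higher and 3355 lower. It called 3562 of 13360 higher in T/NK-like, 1783 of 12833 lower in progenitor-like, 2147 of 12573 higher in goblet-like and 644 of 12612 lower in myeloid-like cells. The counts of clock genes called under these settings are therefore not read as results about the clock. A joint fit over the main classes called 4 higher and 0 lower in enterocyte-like, 0 lower in progenitor-like, 0 lower in goblet-like and 1 lower in myeloid-like cells. Among all 11465 genes, the joint fit called 3932 higher and 2201 lower in enterocyte-like cells. It called 1827 lower in progenitor-like, 2543 in goblet-like and 1036 in myeloid-like cells. It turned Per1 in enterocyte-like cells to 0.82 and Npas2 in progenitor-like cells to 0.37, and neither was called. Without a filter on low counts, 4 were higher and 2 lower in enterocyte-like, 4 and 5 in T/NK-like, and 3 higher in goblet-like cells. Of all 20741 genes without that filter, 4508 were higher and 5385 lower in enterocyte-like cells. The counts were 5273 and 5532 in T/NK-like cells, and 2837 higher in goblet-like cells. With total UMIs alone, 2 were lower in enterocyte-like, 4 higher in T/NK-like, 2 higher and 2 lower in goblet-like, and 2 lower in erythroid-like cells. Enterocyte-like cells had 5 higher in the deep clusters alone, and 2 lower in the other clusters alone or under 10% mitochondrial UMIs. Among all genes, 3699 of 12968 were higher in the deep clusters alone. In the other clusters alone 5173 of 12724 were lower, and under 10% mitochondrial UMIs 5064 of 13082. Progenitor-like cells had 3 lower under 10% mitochondrial UMIs, at Leiden resolution 0.5 or without the top doublet scores. Among all genes 2935 of 12653, 3160 of 12695 and 3086 of 12820 were lower there, in that order. With no replicate block for the library, 1 was lower in progenitor-like, 0 in goblet-like and 0 in myeloid-like cells, and the other counts of calls kept within 1.5 times. Among all genes without the block, 2373 of 12833 were lower in progenitor-like, 3147 of 12573 in goblet-like and 1204 of 12612 in myeloid-like cells. Every called gene had the same direction in each library alone. Total UMIs alone and both cluster groups were chosen after seeing the data. Depth limits the myeloid-like and erythroid-like classes, where no clock gene reached 20 UMIs.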

Other observations

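Cluster 5 carried no class name: its leading genes by fold included Neurog3, an enteroendocrine fate factor, and Ascl2, a stem cell factor of the crypt. It held 404 cells of control 1 and 197 cells of control 2. Arntl had 12 UMIs (8.90 CPM) in control 1 and 27 UMIs (50.7 CPM) in control 2, 5.69-fold lower in control 1 with an interval of 2.79 to 12.3. Nr1d1 had 28 UMIs (20.8 CPM) in control 1 and 5 UMIs (9.38 CPM) in control 2, and Nr1d2 had 23 UMIs and 3 UMIs. These 3 genes lay on the sides they have in enterocyte-like cells, and the counting interval of Arntl alone leaves out 1.

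In classes under 50 cells, Paneth-like cells, which secrete antimicrobial peptides at the crypt base, had 12 Nr1d1 UMIs in control 1 and 0 in control 2, and 4 Npas2 UMIs in control 1 and 18 in control 2, from 16 cells of control 1 and 13 cells of control 2. Enteroendocrine-like cells, which release gut hormones, had 53 Npas2 UMIs (97.3 CPM) in control 1 and 23 UMIs (80.3 CPM) in control 2, a ratio of 1.21 (0.729 to 2.07). Nr1d2 there had 23 UMIs in control 1 and 3 UMIs in control 2, a ratio of 4.03 (1.22 to 21.0).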
